A study of Rattus norvegicus with 32 samples.

Results

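Cyclic AMP carries the β-adrenergic signal inside the cardiomyocyte. A receptor at the membrane activates the stimulatory G protein encoded by Gnas, which turns on adenylyl cyclase, and the cyclic AMP that is made binds the regulatory subunits of protein kinase A (PKA) and releases its catalytic subunits. In the heart these phosphorylate the proteins of calcium handling and contraction, and Pkia encodes a small inhibitor that holds free catalytic subunits inactive.

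The genes followed here were Gnas, the cyclases Adcy5, Adcy6 and Adcy9, the catalytic subunits Prkaca and Prkacb, the regulatory subunits Prkar1a, Prkar2a and Prkar2b, and Pkia. They were found by name: a probe that was not a control was taken when either version of the array annotation gave it one of these symbols. This gave 10 genes, each with a probe, of the 27961 genes with a symbol on the array. The 10 genes had 23 probes, of which 20 passed the filter on dim probes in males and 19 in females, and all 10 genes passed in both sexes through their brightest probe, which stands for the gene unless another is named. A level below is the log2 of the normalised signal of a probe, and levels of different probes were not compared.

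The tissue was the left ventricle of Wistar rats aged 9 to 12 weeks, frozen 20 h after surgery, and each of the 32 arrays held the RNA of 1 rat. In each sex there were 5 sham rats, 5 rats with cecal ligation and puncture (CLP), a surgical model of abdominal sepsis, and 6 CLP rats infused with landiolol, which blocks the β1-adrenergic receptor and is cleared quickly, at 0.1 mg per kg per min from 1 h after CLP. The CLP group received saline in its place, and buprenorphine was given before surgery. By the methods of the study, the hearts had been perfused in isolation (Langendorff) before freezing, and samples of low RNA integrity had been discarded. The tissue was bulk ventricle, in which fewer cells of a type and less RNA per cell cannot be told apart.

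The arrays lay on 4 slides of 8 positions, and both slides of a sex held all 3 groups, but each slide held 1 sex, so sex and slide cannot be told apart in the levels. In females the row on the slide also went with the group, with all 5 sham arrays in row 1 and all 6 landiolol arrays in row 2. Between 34920 and 43155 spots per array were well above background and 0 were saturated. The cardiomyocyte markers were bright in every group, with group medians of their mean level between 16.9 and 17.29. Groups were compared with limma's moderated test, with Benjamini-Hochberg adjustment over all probes kept, at a false discovery rate of 1% for each septic group against sham and of 5% for the effect of landiolol in septic rats and for differences between the sexes. A gene past this limit is called changed.

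Promoters were available for 7 of the 10 genes in RefSeq (assembly GRCr8), each with 250 bases before and 50 after the start of transcription. Those of Prkaca and Adcy9 are printed 5′ to 3′ on the strand of the gene, because these were, with Pkia, the genes whose 95% confidence interval for CLP vs sham lay below 0 in both sexes. Capitals mark the letters TGACG (part of the cAMP response element), GGGCGG and CCAAT on either strand. The Prkaca window is chr19:41083140-41083439, minus strand, and the Adcy9 window is chr10:11645595-11645894, plus strand.
Prkaca: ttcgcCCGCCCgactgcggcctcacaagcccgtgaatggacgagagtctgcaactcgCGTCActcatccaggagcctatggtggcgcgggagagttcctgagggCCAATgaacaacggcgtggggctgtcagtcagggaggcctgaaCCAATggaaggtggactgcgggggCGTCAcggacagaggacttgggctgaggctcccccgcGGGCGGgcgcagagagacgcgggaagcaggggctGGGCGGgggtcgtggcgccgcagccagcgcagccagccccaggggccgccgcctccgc
Adcy9: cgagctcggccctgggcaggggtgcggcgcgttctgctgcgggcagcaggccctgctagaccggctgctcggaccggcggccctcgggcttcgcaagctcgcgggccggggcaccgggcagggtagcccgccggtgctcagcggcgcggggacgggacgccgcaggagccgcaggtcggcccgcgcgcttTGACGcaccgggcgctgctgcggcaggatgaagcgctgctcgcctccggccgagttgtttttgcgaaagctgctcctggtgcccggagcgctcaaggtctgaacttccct
Both windows are rich in G and C, 70.3% in Prkaca and 74% in Adcy9. The Prkaca window held TGACG 2 times, both on the other strand, GGGCGG 3 times and CCAAT 2 times, and the Adcy9 window held TGACG 1 time and neither of the other words. Of all 33469 promoters of this length, 21.2% held TGACG, 33.1% GGGCGG and 37.5% CCAAT. The full element TGACGTCA was in 1.83% of promoters and the word TATAAA in 14.2%, and neither was in these windows. These are matches of letters and were not tested as binding sites.

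In CLP vs sham, the genes with a called probe were the inhibitor Pkia, in both sexes, and the catalytic subunit Prkaca, in males. The Pkia signal in the CLP group was 47.8% of the sham signal in males and 49.9% in females by its brightest probe, and 49.5% and 45.3% by its second probe. The Prkaca signal was 73.1% of sham in males and 81.8% in females. By the brightest probe, 1 of 10 genes was called in males (Prkaca) and 0 of 10 in females, against 8.89% of all 16470 genes tested in males and 4.21% of 16208 in females. When a gene was counted for any of its probes, 2 of 10 were called in males (Prkaca and Pkia) against 9.84% of all genes, and 1 of 10 in females (Pkia) against 4.65%. The 10 genes had 23 probes and all 27961 genes with a symbol had 39497, so the 10 had more chances of a call in this count. For CLP plus landiolol vs CLP, 0 of 10 genes were called in either sex, by the brightest or by any probe, against 1.77% and 2.03% of all genes in males and 0.0987% and 0.129% in females.

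**Figure D1:**
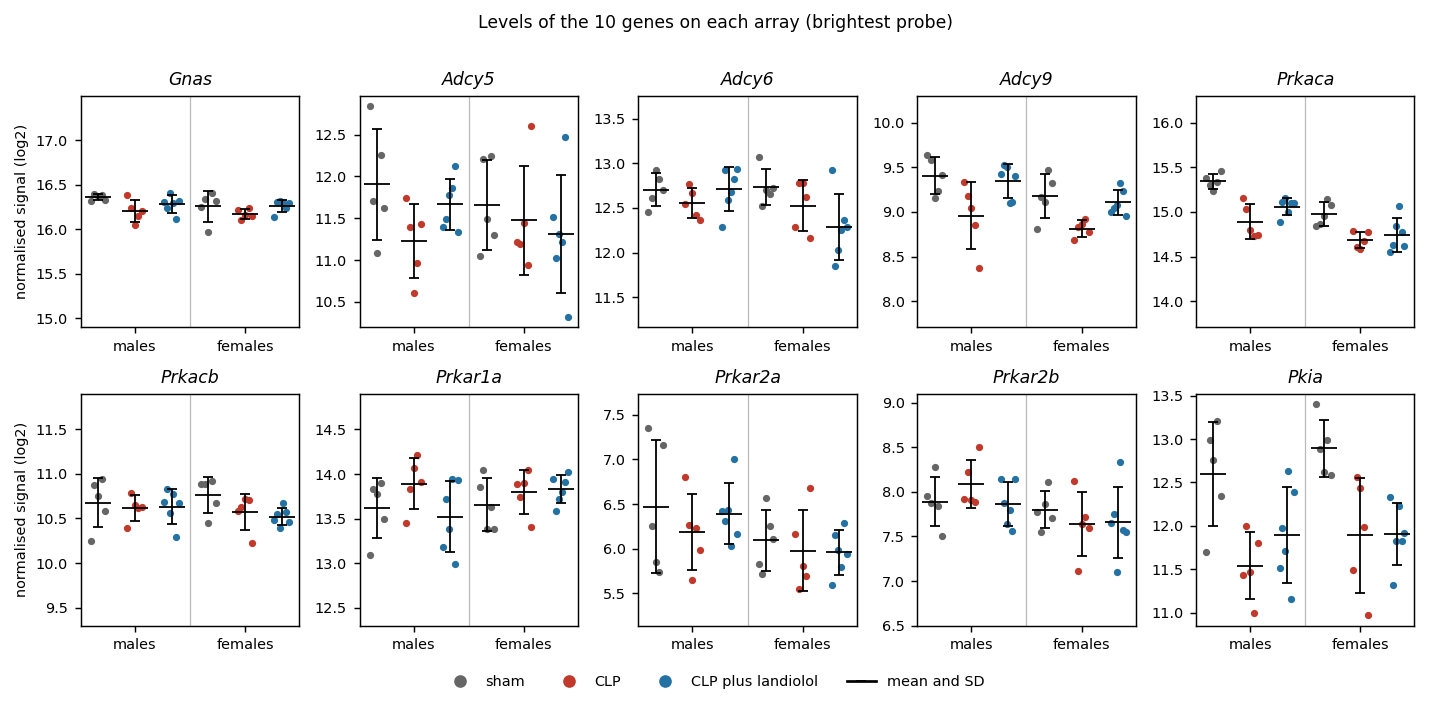
Level of the brightest probe of each gene on each of the 32 arrays (y axis, log2 normalised signal) for sham (grey), CLP (red) and CLP plus landiolol (blue), males left and females right in each panel, with mean and SD as black bars. Pkia, Prkaca and Adcy9 are lower in CLP than in sham in both sexes, and the Adcy5 arrays are widely spread within groups.

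Gnas, which encodes the stimulatory α subunit, varied little between arrays. Its levels ran from 16.32 to 16.40 in male sham, from 16.05 to 16.38 in male CLP and from 16.11 to 16.41 in male CLP plus landiolol. In females they ran from 15.97 to 16.41, from 16.10 to 16.24 and from 16.14 to 16.32. The groups overlapped in every comparison. The difference of CLP from sham was -0.16 (SE 0.09, 95% interval -0.34 to 0.03) in males and -0.08 (SE 0.11, interval -0.31 to 0.14) in females, and landiolol against CLP gave 0.07 (interval -0.11 to 0.25) and 0.09 (interval -0.13 to 0.30). The Gnas locus makes several transcripts, and the position of this probe was not given in the files. The other 2 Gnas probes tested were not called, one with 0.16 (SE 0.15) and -0.09 (SE 0.21) for CLP vs sham in males and females and the other with -0.12 (SE 0.32) and -0.67 (SE 0.51).

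The cyclases Adcy5 and Adcy6 are the main forms of the adult cardiomyocyte, and Adcy9 is a more distant member of the family. Adcy9 was the one whose interval left out 0 in both sexes. Its levels in males were 9.64, 9.58, 9.16, 9.24 and 9.42 in sham, 9.34, 9.18, 9.05, 8.85 and 8.37 in CLP, and 9.10 to 9.53 with a median of 9.41 in CLP plus landiolol. In females they were 8.81, 9.17, 9.11, 9.47 and 9.33 in sham, 8.68, 8.83, 8.87, 8.92 and 8.77 in CLP, and 8.96 to 9.33 with a median of 9.06 in CLP plus landiolol. The female CLP and CLP plus landiolol arrays did not overlap, as for 1.32% of all genes in that comparison, and sham and CLP overlapped in both sexes.

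For Adcy9, CLP differed from sham by -0.45 in males (SE 0.17, adjusted p = 0.0848) and by -0.37 in females (SE 0.13, adjusted p = 0.0948), so neither passed the 1% limit. Landiolol against CLP gave 0.39 in males (SE 0.16, adjusted p = 0.278) and 0.29 in females (SE 0.12, adjusted p = 0.473), and against sham -0.07 in both sexes (intervals -0.41 to 0.28 and -0.34 to 0.19). The sign of CLP vs sham was the same on both slides of each sex, -0.42 and -0.66 in males and -0.21 and -0.55 in females. A second Adcy9 probe, named in the female annotation alone, gave -0.39 (SE 0.26) and -0.35 (SE 0.23) for CLP vs sham and 0.68 (SE 0.25, adjusted p = 0.21) and 0.30 (SE 0.22) for landiolol against CLP. With the slide as a term in the fit, Adcy9 passed the limit in males, at -0.53 (adjusted p = 0.0084).

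Adcy5 levels were widely spread within groups. They ran from 11.09 to 12.84 in male sham and from 10.60 to 11.74 in male CLP, and the difference was -0.68 (SE 0.29, interval -1.29 to -0.07, adjusted p = 0.129). In females sham ran from 11.05 to 12.24 and CLP from 10.94 to 12.60, and the difference was -0.18 (SE 0.38, interval -0.98 to 0.62). The CLP plus landiolol rats ran from 11.34 to 12.12 in males and from 10.32 to 12.47 in females, with differences from CLP of 0.44 (interval -0.15 to 1.02) and -0.17 (interval -0.93 to 0.60). The highest female CLP level, 12.60, was that of replicate 5.

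Adcy6 levels lay between 11.85 and 13.07 on all arrays. CLP vs sham gave -0.15 (SE 0.14) in males and -0.21 (SE 0.19) in females, neither called. Landiolol against CLP gave 0.16 (SE 0.13) in males and -0.24 (SE 0.18) in females. In females CLP plus landiolol lay below sham by -0.45 (SE 0.18, interval -0.84 to -0.06, adjusted p = 0.124), or by -0.22 (adjusted p = 0.885) with the slide row as a term, while males gave 0.00 (interval -0.28 to 0.29). The second Adcy6 probe, of which the annotation places 25 of 60 bases on the genome, was not called either.

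Prkaca, the main catalytic subunit of PKA in the heart, was read by 1 probe, on chromosome 19 from 25840817 to 25840876, minus strand (rn4). In males its levels were 15.38, 15.30, 15.24, 15.34 and 15.46 in sham and 15.16, 15.03, 14.80, 14.73 and 14.74 in CLP. The CLP plus landiolol rats ran from 14.89 to 15.16 with a median of 15.10. Every male CLP array and every male CLP plus landiolol array lay below every male sham array, a separation that 13.6% and 8.84% of all genes showed in these comparisons.

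In females Prkaca was at 14.84, 14.86, 14.95, 15.15 and 15.08 in sham and at 14.79, 14.61, 14.59, 14.67 and 14.77 in CLP. The CLP plus landiolol rats ran from 14.55 to 15.07 with a median of 14.70. Sham and CLP did not overlap, as for 9.37% of all genes, although the lowest sham and the highest CLP array lay close together, and the CLP plus landiolol arrays overlapped both.

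The CLP difference of Prkaca was -0.45 (SE 0.10, interval -0.67 to -0.23, adjusted p = 0.00739) in males, which was called, and -0.29 (SE 0.12, interval -0.55 to -0.03, adjusted p = 0.157) in females, which was not. The differences within slides were -0.34 and -0.61 in males and -0.32 and -0.29 in females. CLP plus landiolol differed from CLP by 0.17 (SE 0.10, interval -0.04 to 0.38) in males and 0.06 (SE 0.12, interval -0.19 to 0.31) in females, and from sham by -0.28 (SE 0.10, adjusted p = 0.0862) and -0.23 (SE 0.12, adjusted p = 0.222). The male call was lost on leaving out any 1 of 8 of the 10 arrays compared (adjusted p up to 0.0243, without CLP replicate 4), and with SAM (q = 0.0267), scaling to the 75th percentile (-0.39, adjusted p = 0.023), only the groups compared (adjusted p = 0.0299) or the slide row as a term (adjusted p = 0.011). The difference stayed between -0.52 and -0.39 in every alternative.

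**Figure D2:**
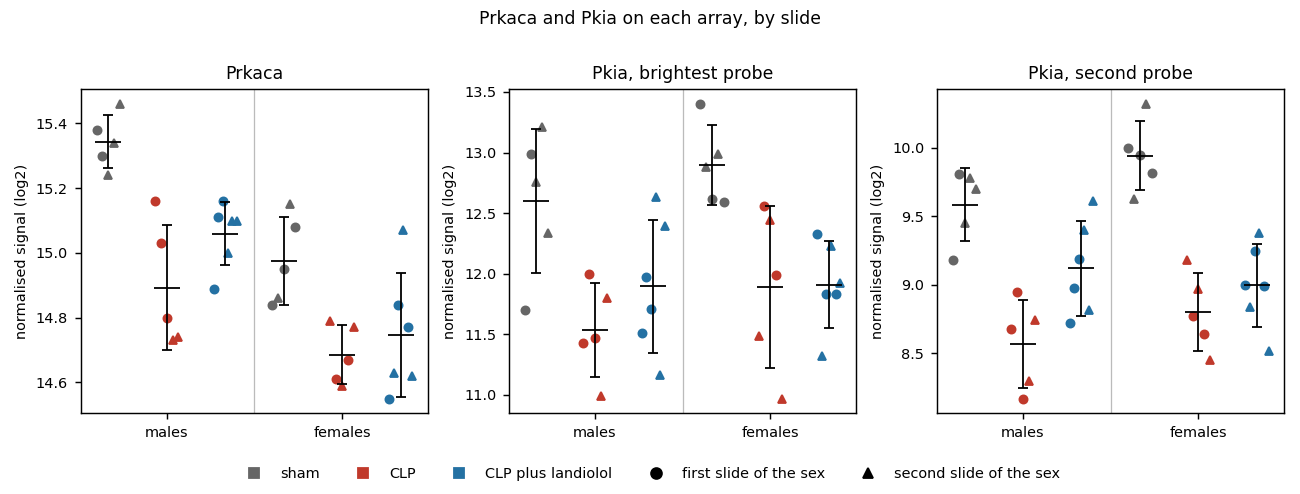
Levels of Prkaca and of both Pkia probes on each array (y axis, log2 normalised signal), males left and females right, with circles for the first and triangles for the second slide of a sex and black bars for mean and SD. Male CLP arrays of Prkaca lie at 14.73 to 15.16, all under the sham arrays at 15.24 to 15.46, and both slides show the lower CLP levels of each probe.

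Prkacb, the other catalytic subunit, was not called in any comparison. Its brightest probe ran from 10.25 to 10.94 over the male and from 10.23 to 10.92 over the female arrays. CLP vs sham gave -0.06 (SE 0.14, interval -0.36 to 0.23) in males and -0.19 (SE 0.13, interval -0.47 to 0.09) in females, and landiolol against CLP gave 0.02 (interval -0.27 to 0.30) and -0.06 (interval -0.32 to 0.21).

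The Prkacb probes differed in how they followed the brightness of the array. The brightest probe lies within 1 stretch of chromosome 2, from 244946410 to 244946469, while another spans an intron, from 244949415 to 244954750 (rn4, minus strand), and its levels ran from 7.39 to 9.25 in males and from 6.63 to 8.96 in females. Over the 16 arrays of a sex, the Pearson correlation of this pair was -0.77 in males (permutation p = 0.00036, adjusted p = 0.00144 over 24 pairs of probes and sexes) and -0.57 in females (permutation p = 0.0219, adjusted p = 0.0438). The Spearman correlation was -0.72 (permutation p = 0.00198) and -0.60 (permutation p = 0.017). Without the 2 arrays farthest from the median of the brightest probe, r was -0.65 and -0.49, and after the group means were taken off it was -0.79 and -0.71. Another Prkacb probe followed the brightest one, with r = 0.75 (permutation p = 0.00128, adjusted p = 0.00384) and 0.70 (permutation p = 0.00235, adjusted p = 0.00627), a Spearman correlation of 0.64 (permutation p = 0.00917) and 0.59 (permutation p = 0.0177), and r = 0.68 and 0.69 without the 2 farthest arrays. Of the 3 Prkacb probes tested, 0 were called in any comparison.

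These relations went with the median signal of the array before normalisation, which ran from 49.2 to 158 over the male and from 68.9 to 157 over the female arrays and overlapped between the groups. The brightest Prkacb probe was higher on brighter arrays, with r = 0.85 in males (permutation p = 2e-05, adjusted p = 0.00012 over 12 relations of a probe with the log2 median signal) and 0.69 in females (permutation p = 0.00339, adjusted p = 0.0102). The probe across the intron was higher on dimmer arrays, with r = -0.89 (permutation p = 1e-05, the smallest that the permutations can give, adjusted p = 0.00012) and -0.66 (permutation p = 0.0053, adjusted p = 0.0106). The Spearman correlations were 0.90 (permutation p = 1e-05) and 0.73 (permutation p = 0.00173) for the brightest probe and -0.80 (permutation p = 0.00031) and -0.63 (permutation p = 0.00959) for the other. Without the 2 arrays farthest from the median signal, r was 0.82 and 0.70 for the brightest probe and -0.87 and -0.61 for the other. The part of array brightness in the correlation between the probes was not tested. For Prkaca the same r was -0.07 in males (permutation p = 0.803, Spearman correlation 0.00, permutation p = 0.988) and -0.16 in females (permutation p = 0.557, Spearman correlation -0.08, permutation p = 0.753), and 0.10 and 0.01 without the 2 farthest arrays. After the group means were taken off, r for Prkaca was -0.33 in males and -0.30 in females, which was not tested. Only Prkaca, Prkacb and Pkia were tested in this way. In male sham, Prkar2a read 7.35 and 7.16 on the arrays of median signal 77.1 and 74.8, and 5.74 to 6.25 on the brighter ones. The relation of the remaining genes with the median signal was not tested.

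**Figure D3:**
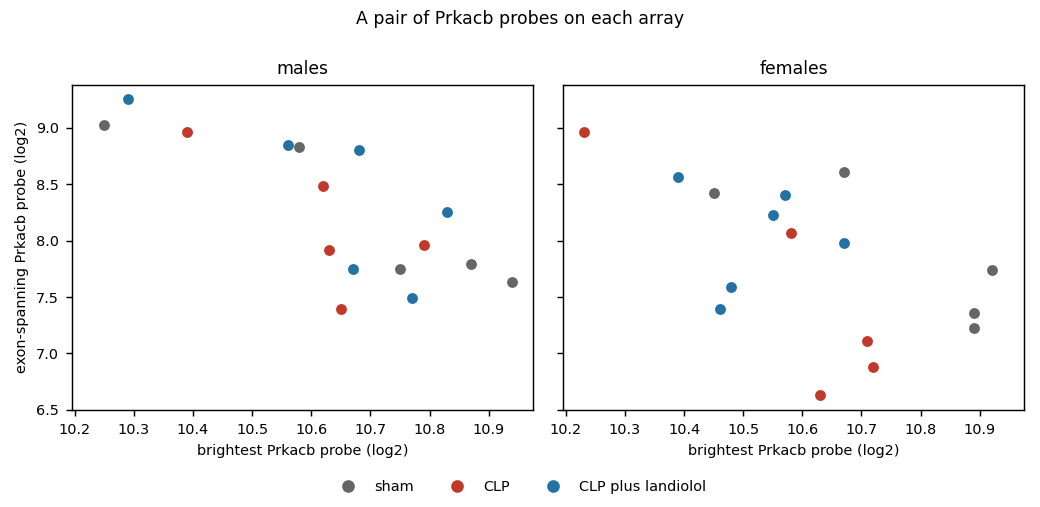
The brightest Prkacb probe (x axis, log2) against the probe that spans an intron (y axis, log2) on the 16 male (left) and 16 female (right) arrays, coloured by group. Arrays high for one probe are low for the other, with r = -0.77 in males and -0.57 in females, and the groups are mixed along the slope, which also runs from dim to bright arrays (r of the median signal with the 2 probes 0.85 and -0.89 in males, 0.69 and -0.66 in females).

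The regulatory subunits hold the catalytic subunits inactive until cyclic AMP binds. Prkar1a, the type I subunit found throughout the body, had 2 probes, of which the annotation places the brightest on chromosome X, from 148642221 to 148642280 (rn4). RefSeq lists a Prkar1a pseudogene on that chromosome, so this probe may read either, and the value is uncertain. It gave 0.27 (SE 0.21, interval -0.18 to 0.73) for CLP vs sham in males, 0.14 (SE 0.16, interval -0.20 to 0.47) in females, and -0.37 (SE 0.20) and 0.03 (SE 0.15) for landiolol against CLP.

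The other Prkar1a probe lies on chromosome 10 from 99108658 to 99108717 and gave -0.16 (SE 0.10, interval -0.37 to 0.04) and -0.12 (SE 0.15, interval -0.45 to 0.20) for CLP vs sham in males and females. It read 12.49, 12.78, 12.56, 12.71 and 12.62 in male sham, 12.44, 12.43, 12.66, 12.36 and 12.47 in male CLP, and 12.13 to 12.44 with a median of 12.24 in male CLP plus landiolol. The last group lay below every sham array, and 8.84% of all genes showed no overlap in this comparison by their brightest probe. The difference from sham was -0.38 (SE 0.09, adjusted p = 0.0162), which missed the 1% limit, and that from CLP was -0.22 (SE 0.09, adjusted p = 0.28). In females the 3 groups of this probe overlapped, and CLP plus landiolol differed from sham by -0.13 (SE 0.15). The correlation of the 2 Prkar1a probes was 0.45 in males (permutation p = 0.0777, adjusted p = 0.143) and 0.12 in females (permutation p = 0.658, adjusted p = 0.757), with Spearman correlations of 0.34 (permutation p = 0.2) and 0.30 (permutation p = 0.263), and r of 0.42 and 0.32 without the 2 farthest arrays.

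The type II subunits Prkar2a and Prkar2b, which anchoring proteins hold near their targets, showed no call. Prkar2a was read by 2 overlapping probes near the level of 6, with -0.28 (SE 0.31) in males and -0.12 (SE 0.22) in females for CLP vs sham by the brighter, and 0.21 (SE 0.30) and -0.02 (SE 0.21) for landiolol against CLP. Prkar2b gave 0.20 (SE 0.17, interval -0.16 to 0.55) in males and -0.17 (SE 0.21, interval -0.61 to 0.28) in females for CLP vs sham, and -0.23 (SE 0.16) and 0.02 (SE 0.20) for landiolol. A second, dim Prkar2b probe was well above background on 4 of 5 male sham, 5 of 5 male CLP and 2 of 6 male CLP plus landiolol arrays, and on 2 of 16 female arrays, and was not called in males.

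Pkia was read by 2 probes on chromosome 2 (rn4, minus strand), the brightest from 96522350 to 96522409 and the second from 96524905 to 96524964. By the brightest probe, males were at 11.70, 12.99, 12.76, 13.21 and 12.34 in sham, at 11.43, 12, 11.47, 10.99 and 11.80 in CLP, and at 11.16 to 12.63 with a median of 11.84 in CLP plus landiolol. One sham array, replicate 1, lay within the CLP range, and the other 4 lay above it. Females were at 13.40, 12.88, 12.62, 12.99 and 12.59 in sham, at 11.49, 12.56, 12.44, 11.99 and 10.97 in CLP, and at 11.32 to 12.33 with a median of 11.88 in CLP plus landiolol. Every female sham array lay above every other female array, a separation that 9.37% and 10.9% of all genes showed for CLP and for CLP plus landiolol.

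By this probe the CLP difference was -1.07 (SE 0.31, interval -1.72 to -0.41, adjusted p = 0.0282) in males and -1.0 (SE 0.28, interval -1.60 to -0.41, adjusted p = 0.0343) in females, both short of the 1% limit. In males it was called without sham replicate 1, at -1.29 (adjusted p = 0.00786). CLP plus landiolol differed from CLP by 0.36 (interval -0.27 to 0.99) and 0.02 (interval -0.55 to 0.59), and from sham by -0.71 (SE 0.30, adjusted p = 0.153) in males and -0.98 (SE 0.27, adjusted p = 0.0252) in females. With the slide row as a term, the female values were -0.29 (adjusted p = 0.89) against sham and 0.43 against CLP, and -0.73 (adjusted p = 0.209) for CLP vs sham. This probe was higher on arrays of higher median signal, with r = 0.66 in males (permutation p = 0.0048, Spearman correlation 0.69, permutation p = 0.00408) and 0.42 in females (permutation p = 0.106, Spearman correlation 0.43, permutation p = 0.098), and 0.72 and 0.67 without the 2 farthest arrays. The part of this in the group differences was not tested.

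The second Pkia probe was called in both sexes. Males were at 9.18, 9.81, 9.45, 9.78 and 9.70 in sham and at 8.68, 8.95, 8.17, 8.30 and 8.74 in CLP, a difference of -1.01 (SE 0.20, adjusted p = 0.00242). Females were at 10, 9.63, 9.95, 10.32 and 9.82 in sham and at 9.18, 8.77, 8.97, 8.64 and 8.45 in CLP, a difference of -1.14 (SE 0.18, adjusted p = 0.00112). Sham and CLP did not overlap in either sex, as for 13.6% of all genes in males and 9.37% in females by their brightest probe. Within slides the differences were -0.89 and -1.12 in males and -1.22 and -1.11 in females. The male call held in all 22 alternatives and the female call in 21 of 22, and it was lost, at -0.97 (adjusted p = 0.0122), when the slide row was a term, an alternative chosen after seeing the data.

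In CLP plus landiolol the second probe ran from 8.72 to 9.61 in males (median 9.09) and from 8.52 to 9.38 in females (median 9.0). The difference from CLP was 0.55 (SE 0.19, interval 0.15 to 0.95, adjusted p = 0.173) in males and 0.20 (SE 0.18, interval -0.18 to 0.57, adjusted p = 0.789) in females, neither called. The difference from sham was -0.46 (SE 0.19, adjusted p = 0.138) in males and -0.95 (SE 0.18, adjusted p = 0.00235) in females, called in females. That female call was lost when the row was a term, at -0.52 (adjusted p = 0.626). Female sham and CLP plus landiolol arrays share no row, so row and treatment cannot be told apart between these groups. For this probe r with the median signal was 0.27 in males (permutation p = 0.312, Spearman correlation 0.35, permutation p = 0.183) and 0.08 in females (permutation p = 0.773, Spearman correlation 0.17, permutation p = 0.528), and 0.40 and 0.46 without the 2 farthest arrays. The 2 Pkia probes moved together over the arrays, with r = 0.87 in males (permutation p = 3e-05, adjusted p = 0.00036) and 0.74 in females (permutation p = 0.00104, adjusted p = 0.00357), with Spearman correlations of 0.88 (permutation p = 5e-05) and 0.71 (permutation p = 0.00271), and with r = 0.82 and 0.63 without the 2 farthest arrays. Once the group means were taken off, r was 0.80 in males and 0.30 in females.

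**Figure D4:**
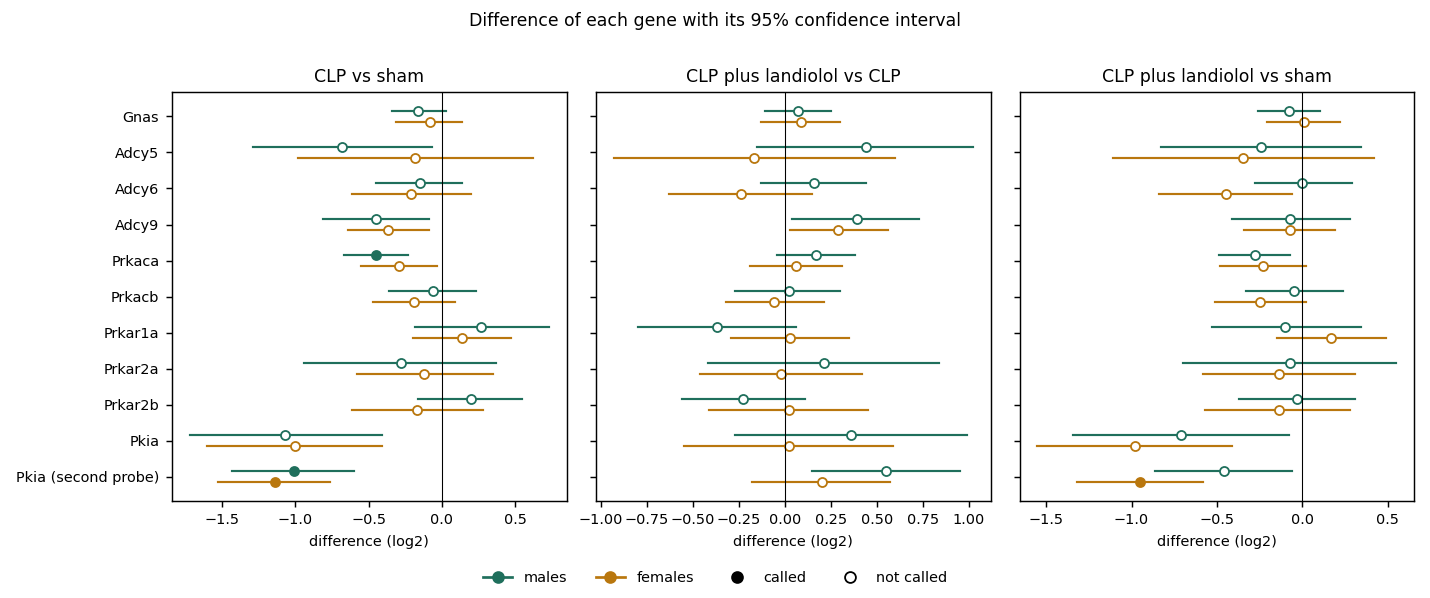
Difference of each gene between groups (x axis, log2) with its 95% confidence interval, for CLP vs sham, CLP plus landiolol vs CLP and CLP plus landiolol vs sham, males in green and females in orange, filled where called. Pkia lies near -1 in both sexes for CLP vs sham, Prkaca at -0.45 and -0.29, and no point is filled for CLP plus landiolol vs CLP.

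As a group, 8 of the 10 genes were below 0 for CLP vs sham in males and 9 of 10 in females, with medians of -0.22 and -0.18, against medians of -0.01 and -0.02 and shares below 0 of 51.6% and 52.0% over all genes tested. At an unadjusted p under 0.05, 4 of the 10 passed in males and 3 in females, against 30.3% and 24.7% of all genes. For landiolol against CLP, 8 of 10 genes were above 0 in males and 6 of 10 in females, with medians of 0.16 and 0.02 against 0.02 and 0.03 over all genes, and 1 of 10 passed an unadjusted p under 0.05 in each sex against 15.9% and 9.88%. For the same comparison, groups that did not overlap were found for 0 of the 10 genes in males and for 1, Adcy9, in females, against 2.59% and 1.32%. For CLP plus landiolol vs sham, 0 of 10 were called by the brightest probe in either sex, against 4.83% and 6.0%. Any probe called gave 0 of 10 in males and 1 of 10 in females, against 5.38% and 6.66%, and 2 of 10 passed an unadjusted p under 0.05 in each sex, against 25.4% and 28.6%. In females, with the slide row as a term, the probes called fell from 1332 to 20 for CLP plus landiolol vs sham. They fell from 923 to 337 for CLP vs sham and from 24 to 1 for CLP plus landiolol vs CLP. Only the female CLP arrays lay in both rows, so the row term rests on them and this fit is less precise. The fall in calls cannot tell an effect of the row from that loss of precision. The comparisons with CLP share the CLP arrays and those with sham share the sham arrays.

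Males and females were then compared directly, as the difference of the CLP effect and of the landiolol effect between the sexes. The interaction called 0 of 10 genes, and 0 of all 26492 probes, in either case. At an unadjusted p under 0.05, 995 and 1307 of all probes passed, and 0 of the 10 genes did in either case against 3.87% and 4.78% of all genes. For Prkaca the male effect of CLP minus the female one was -0.18 (SE 0.15, interval -0.47 to 0.12), and for Pkia -0.05 (SE 0.43, interval -0.93 to 0.83) by the brightest probe and 0.15 (SE 0.27, interval -0.40 to 0.70) by the second. The lowest p of the 10 for the landiolol effect was that of Adcy6, with 0.40 (SE 0.23, interval -0.06 to 0.86, limma adjusted p = 0.968). So a call in 1 sex alone, as for Prkaca, did not show a difference between the sexes, and the interval for Prkaca does not exclude one.

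Among the other genes of the pathway, 143 were listed in 10 groups, 128 passed the filter in males and 124 in females. In CLP vs sham, 5 rose and 9 fell in males and 4 rose and 7 fell in females, with medians of -0.04 in both. That is 14 of 128 and 11 of 124 genes called, against 8.89% and 4.21% of all genes, and the counts of single lists below are to be read against the same shares and were not tested. In females, the probes called for CLP vs sham fell from 923 to 337 with the slide row as a term. The genes of these lists were not followed in that fit, so the female CLP calls of single genes named below are uncertain. The remaining PKA genes (Prkar1b, Pkib, Pkig and Prkx) gave 0 calls in any comparison. Of the 18 listed PKA substrates of the cardiomyocyte, 18 were tested in males and 17 in females, with 0 called in either sex and medians of -0.12 and -0.01. The 11 phosphatases and regulators that oppose PKA gave 0 calls as well.

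The anchoring proteins, which place PKA near its substrates, changed in 3 of 17 in males and 2 of 17 in females. Akap6, which holds PKA at the nuclear envelope and the calcium release channel, fell from 10.01 to 8.89 in males, by 1.12 (SE 0.13, adjusted p = 5e-05), and from 10.35 to 9.15 in females, by 1.19 (SE 0.16, adjusted p = 0.000353). Akap1, which anchors PKA at mitochondria, fell by 1.16 (SE 0.22) in males and by 1.01 (SE 0.19) in females. Akap13 rose by 0.61 (SE 0.11) in males. In males Akap6 was higher with landiolol than in CLP by 0.57 (SE 0.12, adjusted p = 0.0295), and in females the difference was 0.82 (SE 0.16, adjusted p = 0.0596), not called.

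Of the phosphodiesterases, which break down cyclic AMP, 3 of 13 were called in males and 2 of 12 in females. Pde10a rose by 1.39 (SE 0.28) in males and by 1.79 (SE 0.16) in females in CLP, and was lower with landiolol than in CLP by -1.22 (SE 0.27, adjusted p = 0.0313) and -1.05 (SE 0.15, adjusted p = 0.0268). In females the probes called in this last comparison fell from 24 to 1 with the slide row as a term. The genes of these lists were not followed in that fit, so this female Pde10a call is uncertain as well. Pde1a fell by 1.46 (SE 0.27) and Pde4a by 0.87 (SE 0.18) in males, and Pde7b rose by 1.48 (SE 0.24) in females.

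Of the other cyclases, Adcy7 fell by 1.07 (SE 0.21, adjusted p = 0.00291) in males, 1 of 5 tested, and 0 of 4 were called in females. In the list of G protein subunits and their regulators, 3 of 21 were called in each sex. Gng11, a γ subunit, fell by 1.65 (SE 0.19) in males and by 1.80 (SE 0.31) in females. Gnai3, an inhibitory α subunit, rose by 0.73 (SE 0.14) and Gnb5 fell by 0.66 (SE 0.15) in males. Rgs4 and Rgs5, which shorten G protein signals, fell by 1.03 (SE 0.19) and 0.91 (SE 0.19) in females, and Rgs5 is also a pericyte marker of the lists used here.

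Receptors and their regulators had 3 calls of 18 in males and 1 of 17 in females for CLP vs sham. Grk5, a kinase that desensitises the β-adrenergic receptor, rose by 0.90 (SE 0.15) in males and by 0.76 (SE 0.17) in females. For landiolol against CLP in males, 0 genes of this list were called lower, so Grk5 was not called by its brightest probe. The study, which used SAM, reports that landiolol brought Grk5 in males nearly back to sham. Vipr1 fell by 1.53 (SE 0.23) in males, where it was higher with landiolol than in CLP by 1.05 (SE 0.22, adjusted p = 0.0291), and Gcgr fell by 1.14 (SE 0.27) in males. Adrb1, the receptor that landiolol blocks, named here after its values were seen, gave -0.29 (SE 0.18, adjusted p = 0.328) in males and -0.18 (SE 0.21, adjusted p = 0.679) in females.

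Other proteins that bind cyclic AMP gave 0 calls of 7 in males and 2 of 7 in females, where Rapgef4 rose by 0.90 (SE 0.15) and Popdc2 fell by 0.95 (SE 0.16). In each sex 6 of these 7 were below 0, with medians of -0.64 in males and -0.75 in females. Among the transcription factors and targets that respond to cyclic AMP, 1 of 14 was called in each sex. Crem, whose short form ICER represses cAMP-driven genes, rose by 1.31 (SE 0.18, adjusted p = 0.000216) in males and was lower with landiolol by -1.35 (SE 0.18, adjusted p = 0.00249). In females Crem was called in neither comparison by its brightest probe. The study, which used SAM, lists it among the female genes that rose in CLP and were reversed by landiolol. Ppargc1a, a coactivator of mitochondrial genes, fell by 1.54 (SE 0.28) in females.

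**Figure D5:**
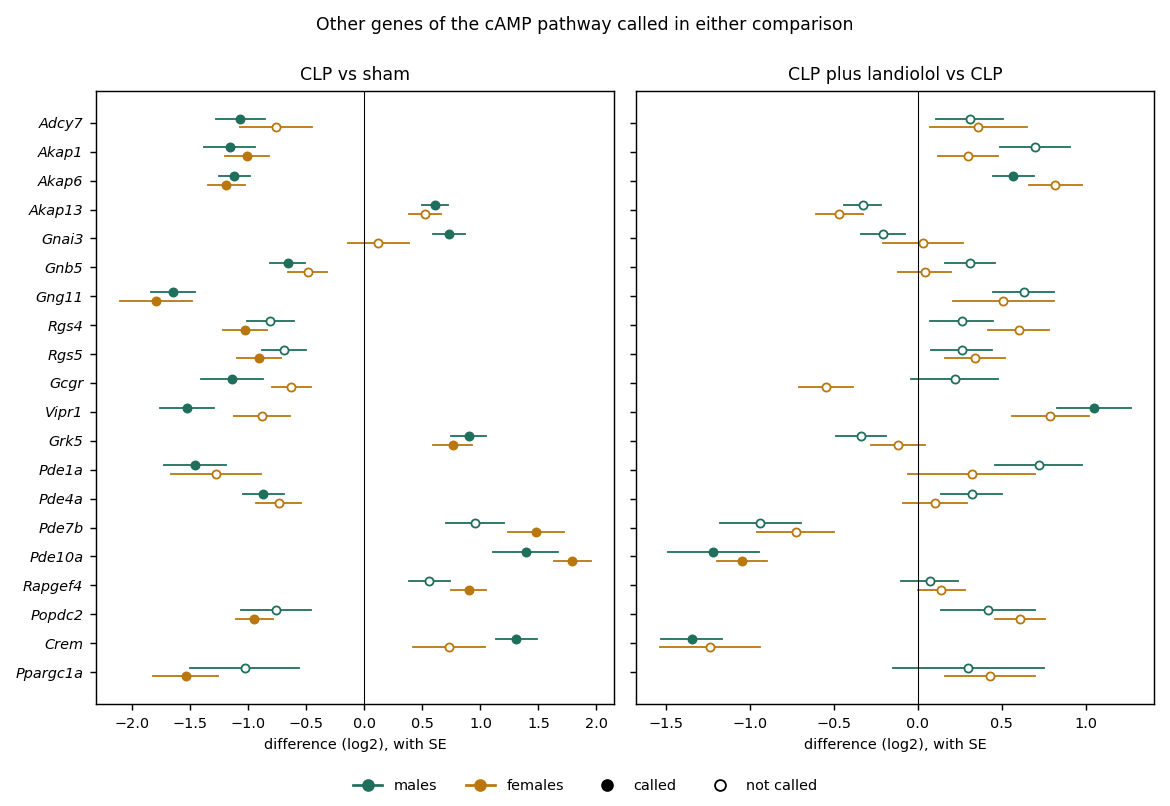
Difference (x axis, log2, bars are SE) of the 20 other pathway genes called in CLP vs sham (left) or CLP plus landiolol vs CLP (right) in either sex, males in green and females in orange, filled where called. Akap1, Akap6 and Gng11 lie below 0 and Grk5 and Pde10a above 0 in CLP vs sham with a call in both sexes. Pde10a was called with the other sign for landiolol. The female calls were not followed with the slide row as a term.

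Levels of other cell types moved with sepsis too. The mean level of the 7 macrophage markers ran from 8.48 to 8.98 over male sham and from 9.24 to 10.08 over male CLP arrays, and from 8.35 to 9.05 and 9.19 to 9.99 in females. Of the 7, 3 were called higher in males and 2 in females, against 8.89% and 4.21% of all genes called, and 1 was below 0 in each sex. The 6 fibroblast markers ran from 12.63 to 13.39 in male sham and from 11.23 to 12.33 in male CLP, and from 12.13 to 12.72 and 10.74 to 12.45 in females. Of these, 4 of 6 were called lower in males and 0 of 6 in females, against 8.89% and 4.21% of all genes called. In each sex 5 of 6 were below 0, with medians of -1.61 and -1.07 for CLP vs sham. The counts alone do not show a difference between the sexes. The 6 neutrophil markers, of which 2 were never well above background, ran from 2.48 to 2.96 in male sham and from 3.83 to 4.78 in male CLP, and from 2.58 to 3.39 and 3.88 to 4.68 in females. Of the 2 that were tested, 2 were called higher in males and 1 in females, with medians of 3.34 and 3.05. A probe could pass the filter through 1 group alone, so these calls are not taken as a test of a rise. The 4 nerve and Schwann cell markers had 2 called lower in males and 1 in females, against the same shares of all genes. In each sex 3 of 4 were below 0, with medians of -1.4 and -0.96. The 10 cardiomyocyte markers had 0 calls in either sex, with medians of -0.09 and -0.04 for CLP vs sham. The part of these shifts in the lower Pkia and Prkaca signals was not tested.

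The genes whose levels were most like Prkaca over the arrays, among 21860 probes kept in both sexes, were Mrpl13 (r = 0.92 in males and 0.92 in females, 16 arrays each) and Gys1 (0.96 and 0.87). Those most like the second Pkia probe were Pacsin2 (0.95 and 0.92) and Perm1 (0.93 and 0.94), and those most like its brightest probe were Fhl2 (0.98 and 0.93) and Rxra (0.94 and 0.95). They were picked as the highest of all probes, so no test was made of them, and the 16 arrays of a sex share their groups, slides and normalisation.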

How the data were processed

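Total RNA of 32 left ventricles was labelled with Cy3 and hybridised to 1-colour Agilent rat arrays. Scanner files made with Feature Extraction 10.5 (per the labels) were deposited, in which each spot has a processed intensity after background subtraction, a mean intensity and quality marks, and a further table by the authors, of quantile-normalised and filtered values in log2. That table had a Spearman correlation of at least 0.988 per array with the values computed here, and whether an offset was added before its log2 remains unknown.

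From the deposited intensity values, control spots and outlier spots were left out, log2 was taken, spots of the same probe were averaged, and quantile normalisation was run over the 16 arrays of each sex. Probes well above background on 80% of the arrays of at least 1 group were kept, 25866 in males and 25395 in females. Groups were assigned from the labels, replicate numbers were given here in the order of the samples, and the comparisons were fitted with limma 3.58.1 (R 4.3.3) in a model of the 3 groups of a sex, whose 16 arrays share one estimate of the spread. The sexes were compared as an interaction over 32 arrays normalised together. 8 comparisons were made. Relations of 2 probes, and of a probe with the median signal of the array, were tested by permutation (100000 resamples, two-sided, adjusted over 24 and 12 relations), the latter after the data were seen. The study used SAM, which was run here with 100 permutations as an alternative.

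A gene is represented by its brightest probe, judged by the mean of the 32 arrays. The members and all lists were chosen with earlier results of these data known. Every member is named, with other probes where they went another way or changed the call, and up to 3 higher and 3 lower called genes per pathway list. For each called member the 2 genes with the most similar levels are named, by the mean of the Pearson correlations in the 2 sexes. Marker lists are given by counts. Probe positions are those of the array annotation (rn4), which was used without gene models, so exon and UTR positions are not given. Tests were checked on simulated data. The precision of a value is limited by the number of arrays, 5 or 6 per group.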

Additional observations from a re-analysis of the deposited data

Results flagged for a closer look

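In 66 groups of values (the 10 genes by their brightest probe and the second Pkia probe, in 6 groups), the gap between the lowest or highest array and its nearest neighbour was set against the range of the group. For Prkacb in the female CLP group the lowest array, replicate 5, was at 10.23 with its nearest neighbour at 10.58, a gap of 0.714 of the range of 5 arrays. Chance marks about 1 in 20 groups in this way. Without that array the difference of Prkacb between CLP and sham in females was -0.10 (limma, adjusted p = 0.65) in place of -0.19. That array also had the lowest number of spots well above background in its group, 36151, and the lowest median signal, 69.6. The part of either in the value was not tested. In the test of the sexes against each other, 0 of the 10 genes were called.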

How the results depend on the processing

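For CLP vs sham in males, where 1 of 10 genes was called, the count was 0 with scaling to the 75th percentile, with only the groups compared, with SAM, and, chosen after seeing the data, with the slide row in the model. It was 2 with the slide as a term (Prkaca and Adcy9), with the mean of the probes of a gene (Prkaca and Pkia) and, chosen after seeing the data, when any probe counted. Leaving out each array in turn gave 0 to 1, and without sham replicate 1 the gene called was Pkia and not Prkaca. In females the count of 0 became 1 (Pkia) for CLP vs sham with the mean of the probes and with any probe counted, and for CLP plus landiolol vs sham with the mean of the probes, only the groups compared, SAM or any probe counted. In the other 5 comparisons the count of 0 held in every alternative run. No called gene changed its sign. Of 2000 recomputed differences 84 changed sign, all of them not called.

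The unprocessed mean intensity, normexp (offset 50), no filter, a filter on all arrays, a trended prior, normalisation of both sexes together and the table of the authors changed no count, and no scaling moved the median of all probes by over 0.1. No paired analysis was possible because the labels give no replicate numbers, and 0 of the 32 sample titles share the code they carry. For the 2 comparisons of the sexes, the table of the authors, SAM, the slide row and the fit of only the groups compared were not run, and normalisation of both sexes together was used throughout. A fit that left out an array kept the filter of the full set.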
